A study of Xenopus tropicalis with 18 samples.

Results

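Foxi2 and Sox3 are transcription factors whose mRNAs are already stored in the egg, and the knockdowns of these 2 factors were set against each other in late blastula embryos of the frog Xenopus tropicalis. The comparison rests on 10 of the 18 RNA-seq libraries of the study, those of stage 9, and the other 8 are of the early gastrula, stage 10.5. Whole wild-type embryos had an antisense morpholino (MO) against foxi2 or sox3 injected into the animal hemisphere at the 1-cell stage, and polyA RNA was sequenced. Each factor has its own controls: 3 Foxi2 morphants (embryos with the foxi2 MO) and 3 Foxi2 controls, and 2 Sox3 morphants and 2 Sox3 controls. The design text calls the comparison embryos wild type, while the treatment field of the control samples also reads morpholino, so what the controls had received was taken as not known. Neither age in hours nor the number of embryos in a library is given in the labels. For each of 14316 genes with enough counts, of 28850 in the tables, the effect of the foxi2 MO (morphant minus control) was compared with the effect of the sox3 MO. Of these genes, 163 had effects that differed between the factors.

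Forkhead box proteins of the Foxi group and SoxB1 proteins such as Sox3 bind DNA in the animal hemisphere of the Xenopus embryo, which forms the ectoderm. Foxi2 is known in Xenopus for activating foxi1 and other genes of the later epidermis, and SoxB1 proteins are known for keeping ectoderm in an early state and for marking the neural plate. The late blastula is the time around which the embryo's own genes start to be transcribed beside the maternal RNA. Because whole embryos were used, fewer cells of a type and less RNA per cell cannot be told apart in any value below.

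The mRNAs of the targeted genes were first compared, in CPM, the field's unit for a gene's reads as a share of all reads in its library, scaled between libraries and to 1 common total. The foxi2 mRNA stood at 403, 380 and 375 CPM in Foxi2 morphants 1 to 3 and at 369, 328 and 221 CPM in their controls, and at 345 and 382 CPM in Sox3 morphants and 400 and 373 CPM in Sox3 controls. Levels of sox3 mRNA were 856, 945 and 879 CPM in Foxi2 morphants, 835, 813 and 670 CPM in their controls, 971 and 905 CPM in Sox3 morphants and 680 and 614 CPM in their controls. Neither mRNA was lower in the morphants of its own factor (sox3 was 0.54 ± 0.08 higher on the log2 scale in Sox3 morphants, under the size that a call needs), and the difference between the effects did not pass the test (adjusted p = 0.304 for foxi2 and 0.233 for sox3, edgeR). Per the study's methods both MOs block translation, which leaves the mRNA in place, so these levels do not check the knockdowns. The study checked them by Western blot and reports that both proteins were substantially depleted in morphants.

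The libraries carry between 12740571 and 27866261 counts, and the larger totals belong to the Sox3 series. Before any comparison, the 5 control libraries were found to stand far apart in transcripts that the embryo makes itself. The mRNA of tbxt (Brachyury), an early mesoderm gene, was at 0.654, 37.1 and 272 CPM in Foxi2 controls 1, 2 and 3, and at 12.01 and 7.07 CPM in Sox3 controls 1 and 2. For krt7, a keratin, the same controls gave 0.952, 90.4 and 715 CPM and 39.9 and 25.8 CPM. Maternal transcripts lay closer: the germ plasm mRNA dazl was at 106, 72.1 and 83.6 CPM and 79.8 and 112 CPM. Other germ plasm mRNAs varied more. The same controls gave 187, 159 and 108 CPM and 301.5 and 330 CPM for ddx25. For nanos1 they gave 39.1, 37.3 and 22.1 CPM and 25.7 and 66.0 CPM. Foxi2 pair 1 thus held almost none of these early embryonic transcripts, Foxi2 pair 3 the most, and the Sox3 controls lay between Foxi2 controls 1 and 2 for tbxt and krt7. Factor, series and this spread in early transcripts cannot be told apart between the series. Markers of every germ layer were present, though at low levels in Foxi2 pair 1.

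**Figure D1:**
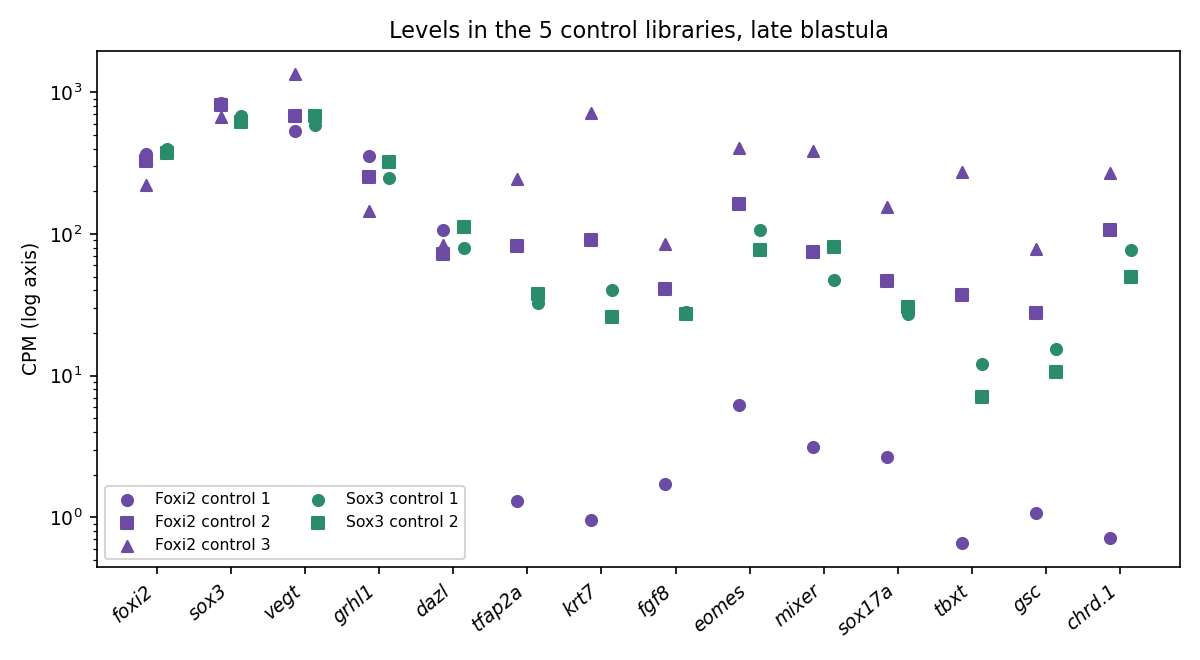
Level (CPM, log axis) of 14 genes in the 5 late blastula control libraries, with 1 point per library. The maternal foxi2, sox3 and dazl lie close together in all 5, while tbxt runs from 0.654 to 272 CPM and krt7 from 0.952 to 715 CPM over the Foxi2 controls.

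Morphants and controls that share a replicate number rose and fell together, with correlations of their deviations over genes of 0.925, 0.774 and 0.899 for the 3 Foxi2 pairs. The effects were therefore taken within pairs, as morphant over the control of the same number, and given as log2 changes, where 1 is a 2-fold change. A gene was called when the difference between the effects, Foxi2 minus Sox3, was at least 1 on the log2 scale with an adjusted p under 0.05 in edgeR's quasi-likelihood test. Effects of 1 knockdown alone were called by the same rule. Nothing in the labels says that replicates came from separate clutches, so the p-values measure the spread between these pairs, which may be technical. Without the pairing the test called 0 genes in either direction (133 at an unadjusted p under 0.05, edgeR).

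In 38 genes the Foxi2 effect lay below the Sox3 effect (0.265% of those tested), and in 125 it lay above (0.873%). The first set is mostly genes that fell in Foxi2 morphants: 27 of the 38 were called lower in that knockdown and not called in the other, 5 were called higher in Sox3 morphants only, 1 was called in both in opposite directions and 5 in neither alone. The second set is mostly genes that fell in Sox3 morphants: 82 of the 125 were called lower there only, 16 were called higher in Foxi2 morphants only, 2 in both in opposite directions and 25 in neither alone. The median Foxi2 effect was -1.40 in the first set and 0.34 in the second, and the median Sox3 effect 0.08 and -1.63, beside 0.01 and 0.00 over all genes tested. The size of the sets depends on single libraries: leaving out 1 of the 10 gave 22 to 58 genes in the first set, the fewest without Sox3 morphant 1 and the most without Foxi2 morphant 1, and 58 to 179 in the second, the fewest again without Sox3 morphant 1.

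Seen from each knockdown, 68 genes were lower in Foxi2 morphants (0.475%) and 28 of these had a called difference. Higher in Foxi2 morphants were 74 genes (0.517%), 18 of them with a called difference. In Sox3 morphants 129 genes were lower (0.901%), 84 of them with a called difference, and 23 were higher (0.161%), 6 of them with one. A gene called in 1 knockdown and not in the other is thus, for most genes in 3 of these groups, not shown to respond differently.

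**Figure D2:**
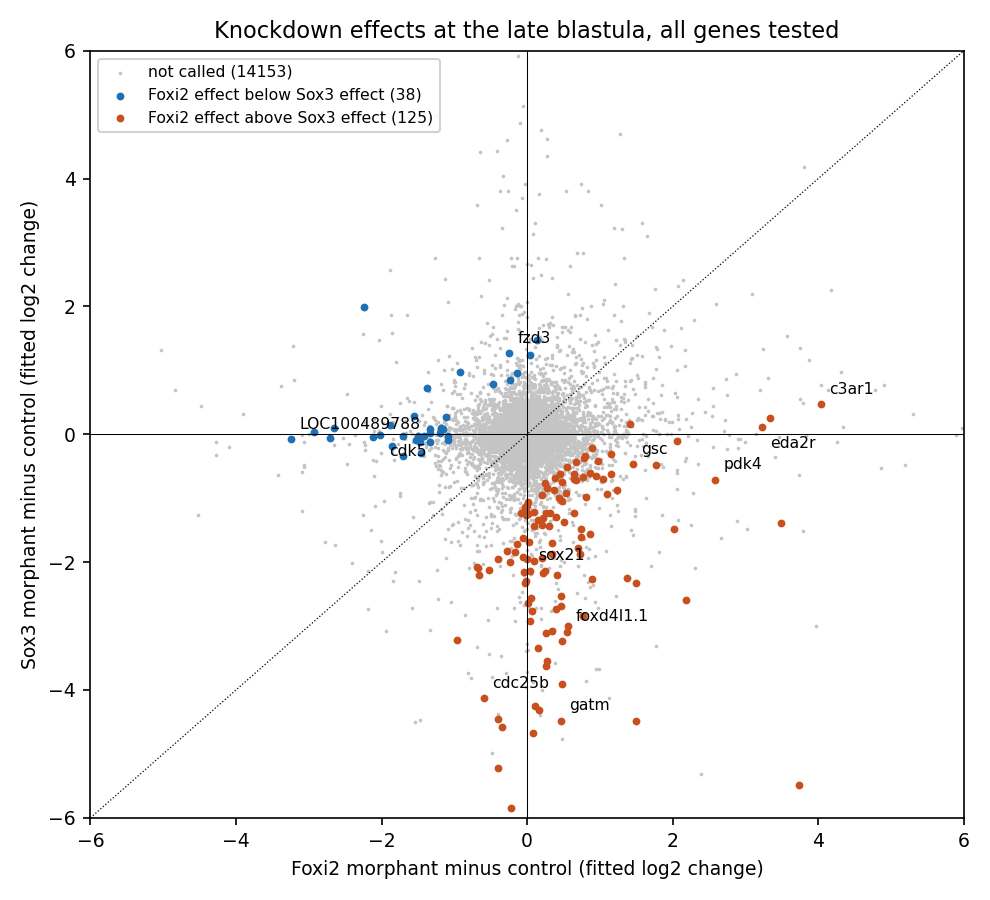
Fitted log2 effect of the foxi2 MO (x axis) against that of the sox3 MO (y axis), with 1 point per gene tested and the 163 genes with a called difference in colour; 24 genes, 8 of them called, lie outside the axes. The 38 genes with the lower Foxi2 effect spread to the left along the horizontal line, and the 125 others mostly downwards along the vertical line.

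The genes called lower in Foxi2 morphants only are given 1 by 1, since no list of their functions was tested. LOC100489788 (chromosome 6, bases 115690012 to 115713272, genome version 10.0), which the tables do not name further and which was picked after its values were seen, was at 35.1, 12.5 and 11.5 CPM in Foxi2 morphants and 274, 165 and 99.8 CPM in their controls, against 202 and 258 CPM in Sox3 morphants and 218 and 265 CPM in their controls. All 3 Foxi2 morphants lay below every other library, and its difference was -3.17 ± 0.18 (log2, SE, adjusted p = 2.02e-05, edgeR). The mRNA of gps2 (chromosome 3, bases 153515061 to 153524877), a subunit of the NCoR/SMRT corepressor complex, was at 1.85, 2.60 and 3.24 CPM in Foxi2 morphants and 8.68, 10.8 and 13.9 CPM in Foxi2 controls, and at 8.92 and 8.55 CPM and 10.9 and 7.44 CPM in Sox3 morphants and controls. Again the 3 Foxi2 morphants did not overlap with any other library, with a difference of -2.07 ± 0.23 (adjusted p = 0.00161, edgeR).

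The Integrator subunit ints4 (chromosome 2, bases 168907413 to 168927068) was at 7.46, 7.74 and 10.0 CPM in Foxi2 morphants, 23.7, 32.0 and 37.9 CPM in their controls, 15.7 and 15.8 CPM in Sox3 morphants and 15.9 and 12.6 CPM in their controls. Its pair ratios were -1.65, -2.04 and -1.91 with the foxi2 MO and -0.02 and 0.33 with the sox3 MO (log2), and its difference was -2.03 ± 0.18 (adjusted p = 0.000426, edgeR). Here the Foxi2 controls also lay above all 4 Sox3 libraries, and the Foxi2 morphants below them. For sympk (symplekin), a scaffold of mRNA 3′ end processing, the levels were 16.4, 22.1 and 40.8 CPM in Foxi2 morphants and 49.5, 76.0 and 96.1 CPM in controls, with 47.7 and 39.4 CPM in Sox3 morphants and 56.6 and 37.5 CPM in Sox3 controls and with a difference of -1.44 ± 0.17. The Foxi2 groups did not overlap in sympk, while morphants and controls of Sox3 did. Its partner cpsf1, the largest subunit of the cleavage and polyadenylation factor and picked after its values were seen, had a difference of -1.01 ± 0.16, and its call was lost without a library of any pair but Foxi2 pair 1 (adjusted p up to 0.114).

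Smaller differences of the same direction were measured for nol6, a nucleolar protein of ribosome assembly (-1.68 ± 0.21), for the translation initiation factor subunit eif2b1 (-1.46 ± 0.21), for the mitochondrial ribosomal protein mrps6 (-1.41 ± 0.19) and, picked after its values were seen, for the ribosomal protein rpl19 (-1.16 ± 0.20). In each of nol6, eif2b1 and mrps6 all 3 Foxi2 pair ratios were under -1, and both Sox3 ratios were between -0.18 and 0.21. The calls of nol6, eif2b1 and mrps6 were lost when Sox3 pair 2 was left out (adjusted p 0.0581, 0.0739 and 0.0601, edgeR), and that of rpl19 without a library of any pair but Foxi2 pair 1 (up to 0.146).

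The kinase cdk5 (chromosome 6, bases 1354866 to 1369888) was at 16.1, 7.56 and 5.83 CPM in Foxi2 morphants, 47.8, 31.8 and 35.2 CPM in their controls, 33.5 and 37.4 CPM in Sox3 morphants and 38.6 and 33.0 CPM in Sox3 controls. Foxi2 morphants were the 3 lowest of the 10 libraries, with a difference of -2.004 ± 0.24 (adjusted p = 0.00257, edgeR). In myo9a, an unconventional myosin with a GTPase-activating domain, the Foxi2 morphants at 14.97, 13.3 and 18.9 CPM lay far under their controls at 46.8, 56.1 and 67.3 CPM, while the Sox3 libraries lay at 20.5 and 19.5 CPM and 23.3 and 22.2 CPM (difference -1.66 ± 0.15). The mitochondrial enzyme suclg1 (succinyl-CoA ligase) gave -1.37 ± 0.13, the glucosidase II subunit prkcsh -1.21 ± 0.14 and mgst1, a microsomal glutathione transferase, -2.65 ± 0.44. Of these, suclg1 and prkcsh were picked after their values were seen, and both calls remained without any single library. For mgst1 the morphant levels of 0.308, 0.363 and 0.863 CPM rest on few counts, and its call was lost when any single library of Foxi2 pairs 2 and 3 or of the Sox3 series was left out (adjusted p up to 0.114).

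**Figure D3:**
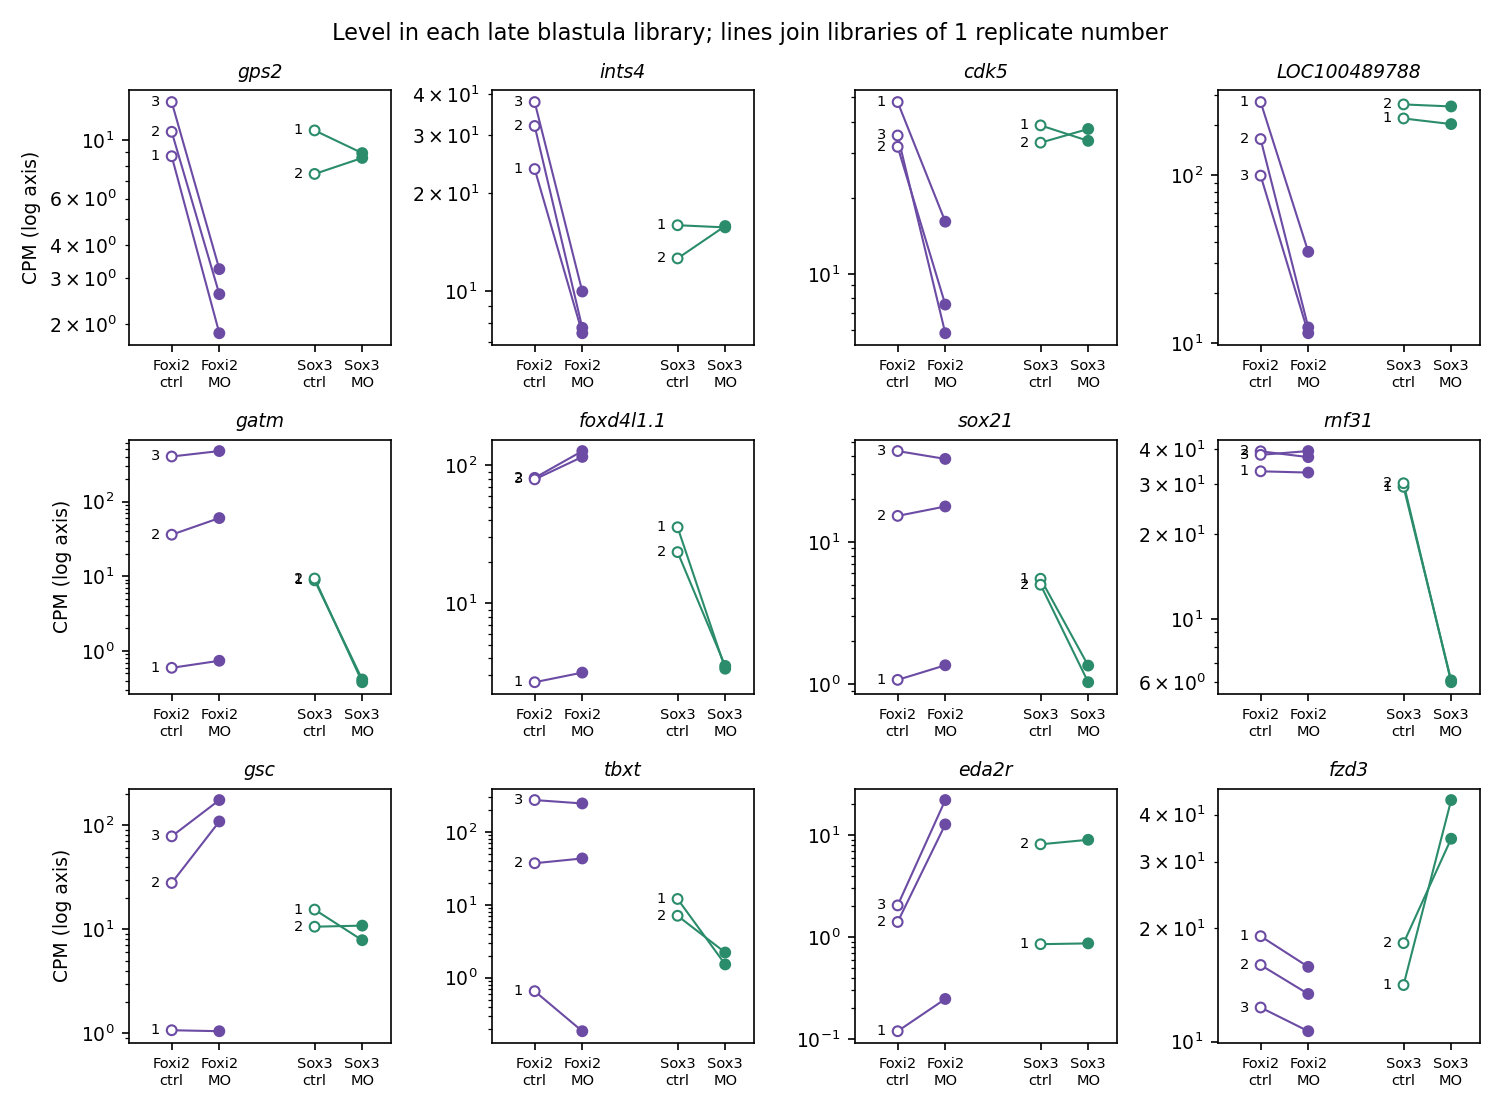
Level (CPM, log axes) of 12 genes in each of the 10 late blastula libraries; open points are controls, filled points morphants, and lines join libraries of 1 replicate number. In gps2, ints4, cdk5 and LOC100489788 all 3 Foxi2 lines fall and the Sox3 lines stay nearly flat, in gatm, foxd4l1.1, sox21 and rnf31 both Sox3 lines fall, and gsc and eda2r rise most in Foxi2 pairs 2 and 3.

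The control levels of the 38 genes with the lower Foxi2 effect changed little in the median between the stages. Of them, 3 rose at least 2-fold in the controls of both series between stages 9 and 10.5 (7.90%, beside 6.55% of all genes tested), and their median change in the controls was 0.04 (Foxi2 series) and 0.38 (Sox3 series) on the log2 scale. Within 0.5 of no change in both series were 8 of the 38 (21.1%, beside 39.7% of all genes). Their median spread over the 3 Foxi2 controls was 0.97 on the log2 scale, beside 0.76 over all genes and 4.597 over the 125 genes with the higher Foxi2 effect. Their median ratios in Foxi2 pairs 1, 2 and 3 were -1.35, -1.46 and -1.24, values that the calls themselves used.

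Several genes that fell most in Foxi2 morphants have few reads. For riiad1 the Foxi2 morphants were at 0.185, 0.181 and 0.144 CPM and their controls at 0.892, 1.33 and 1.96 CPM, beside 1.07 and 0.764 CPM in Sox3 morphants and 1.01 and 0.777 CPM in Sox3 controls. For lkaaear1 the same groups were at 0.246, 0.726 and 0.647 CPM, 1.25, 3.87 and 5.46 CPM, 3.39 and 2.63 CPM and 3.56 and 2.15 CPM. Every Foxi2 morphant of riiad1 had at most 3 counts. That puts the mean of the morphants at least 6.46-fold below the mean of the controls, computed against 3 counts per library. Single pairs can lie closer, as in Foxi2 pair 1 with 15 control and 3 morphant counts. Leaving out a library of Foxi2 pairs 2 or 3 or of either Sox3 pair ended its call (adjusted p up to 0.369), as leaving out a Sox3 library did for lkaaear1 (up to 0.0698). The endophilin gene sh3gl3, whose product acts in endocytosis, had Foxi2 ratios of -1.18, -2.02 and -1.69 and Sox3 ratios of 0.23 and 0.33, and its call was lost in the same way as that of riiad1 (up to 0.245). In the other direction the Sox3 morphants of vxn, trex2 and gprc5a had at most 3 counts each, at least 5.02-fold, 3.17-fold and 9.69-fold lower than in their controls. The bounds use the mean of the 2 controls, and in vxn Sox3 control 1 had 1 count and control 2 had 30. In trex2 the Sox3 effect was not called (-2.59 ± 0.77, adjusted p = 0.185, edgeR), while the Foxi2 effect was called higher (2.19 ± 0.46). The genes vxn, trex2 and gprc5a lost their called differences without a library of any pair but Foxi2 pair 1.

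A few members of this set are regulators of early development. The Notch ligand dlc was at 1.60, 1.39 and 23.0 CPM in Foxi2 morphants and 2.92, 1.87 and 79.8 CPM in their controls, and at 1.45 and 1.11 CPM in Sox3 morphants and 0.768 and 0.777 CPM in Sox3 controls. Only Foxi2 pair 3 and its large drop carried many reads, and the call (difference -2.10 ± 0.45, adjusted p = 0.0445, edgeR) was lost when a library of Foxi2 pair 3 or of either Sox3 pair was left out (adjusted p up to 0.497). In esr-5, a hairy/Enhancer-of-split related repressor, the difference was -1.89 ± 0.28, with Foxi2 ratios of -0.80, -0.68 and -0.998 and Sox3 ratios of 1.19 and 0.45, and neither effect was called alone. Leaving out a library of Foxi2 pair 3 or Sox3 pair 1 ended that call too (adjusted p up to 0.247). Over the list of Notch pathway and hes genes, which does not hold esr-5, 1 of 35 was called below (dlc) and 2 above (hes4 and hes5.10). The shares over all genes tested were 0.265% and 0.873%, and the list's median difference was 0.04.

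The genes that fell in Sox3 morphants and not in Foxi2 morphants included transcription factors of the neural plate. A list of these factors had 43 tested genes. Of them, 7 (16.3%) were called with the Foxi2 effect above the Sox3 effect and 0 below, beside 0.873% and 0.265% over all genes tested. Genes on the rise were called above more often in general: 81 of the 938 that rose at least 2-fold from stage 9 to 10.5 in both control series. How far this rise goes with the list's share was not tested. On the list 9 were called lower in Sox3 morphants and 0 in Foxi2 morphants, beside 0.901% and 0.475% over all genes tested. The median difference over the list was 0.78, beside 0.01 over all genes tested. Among the 7 are the zinc finger gene zic4, the forkhead genes foxd4l1.1 and foxd4l1.2, which in Xenopus hold neural cells in an immature state, the SoxB2 gene sox21, the LIM homeobox gene lhx5 and the Iroquois gene irx2. Cells of the list's tissue are not yet a separate plate at this stage, and the list was drawn up from textbook knowledge with earlier results of these data known.

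The levels of foxd4l1.1 (chromosome 1, bases 129085193 to 129086818) were 3.14, 127 and 115 CPM in Foxi2 morphants and 2.68, 81.2 and 79.2 CPM in their controls, and 3.35 and 3.51 CPM in Sox3 morphants against 35.6 and 23.5 CPM in theirs. Both Sox3 morphants lay well below both of their controls, and in the Foxi2 series pair 1 was low while every morphant lay above its own control. Its 3 Foxi2 ratios of 0.22, 0.64 and 0.54 were all above 0 and its Sox3 ratios were -3.37 and -2.71, with a difference of 3.64 ± 0.20 (adjusted p = 1.63e-05, edgeR). The Sox3 effect was -3.09 ± 0.16, and the Foxi2 effect of 0.55 ± 0.12 was under the size a call needs. The neighbouring copy foxd4l1.2, whose reads may be shared with foxd4l1.1, had at most 3 counts in each Sox3 morphant. The mean of the Sox3 morphants was thus at least 8.01-fold below the mean of their controls, which single pairs need not reach. Its Foxi2 ratios were 0.03, 0.98 and 0.16.

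Sox21, a repressor of SoxB1 targets in other vertebrates, is encoded by sox21 (chromosome 2, bases 122613553 to 122616568), which stood at 1.35 and 1.03 CPM in Sox3 morphants and 5.50 and 4.995 CPM in their controls. In Foxi2 morphants it was at 1.36, 17.7 and 38.3 CPM and in their controls at 1.07, 15.2 and 43.5 CPM, so that morphants and controls of Foxi2 overlapped. The difference was 2.17 ± 0.25 (adjusted p = 0.00161, edgeR). For zic4 the Sox3 ratios were -4.20 and -3.48 and the Foxi2 ratios -0.88, 0.62 and -0.11, for lhx5 -1.83 and -2.16 (Sox3) against -1.12, 0.07 and -0.46 (Foxi2), and for irx2 -1.86 and -1.57 against -0.39, 0.02 and -0.50. Both Sox3 ratios lay below all Foxi2 ratios in all 7 genes, as they did in 118 of the 125 called above and in 2108 of the 14316 tested, and the calls rest on these same ratios. The calls of zic4, sox21, foxd4l1.1 and lhx5 remained when any single library was left out, and those of foxd4l1.2 and irx2 were lost without a library of Foxi2 pair 2 (adjusted p 0.0875 and 0.0598) or of either Sox3 pair (up to 0.316 and 0.305).

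**Figure D4:**
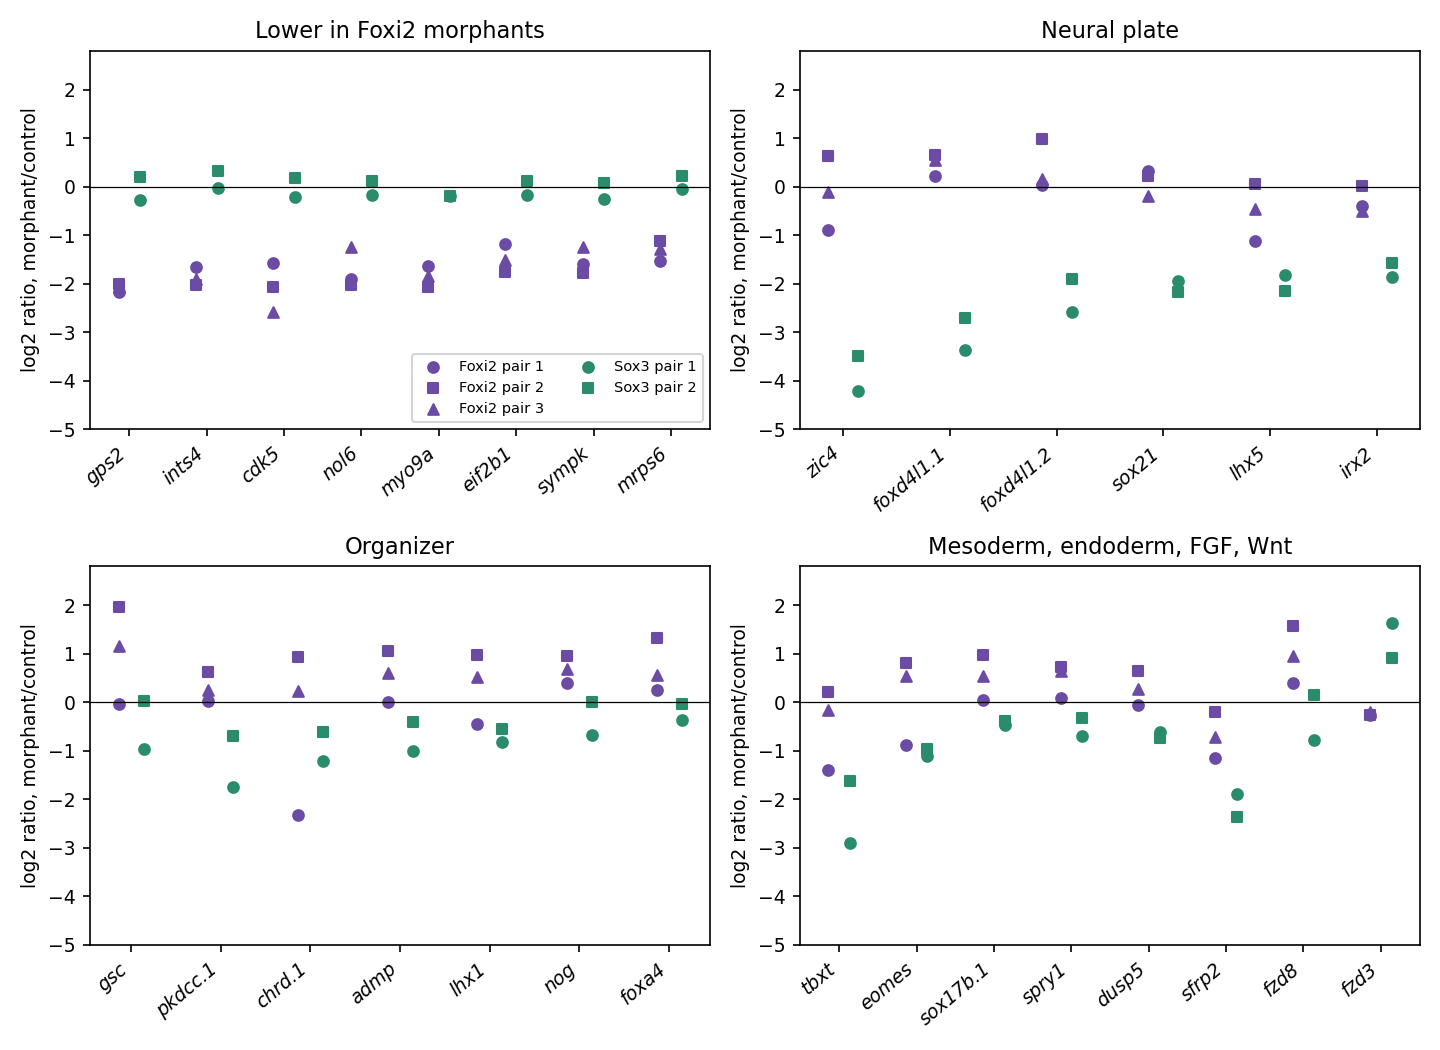
Log2 ratio of morphant over control in each of the 5 pairs, for 8 genes called lower in Foxi2 morphants and for called genes of the neural plate, the organizer and 4 signalling and germ layer lists. In both upper panels the Foxi2 and Sox3 points of a gene are apart, which the choice of the genes of the left one required and which the calls of the right one rest on, and in the organizer panel the Foxi2 points of pairs 2 and 3 lie above 0.2 while those of pair 1 reach -2.32.

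Within the same list, sox2 itself, a SoxB1 gene, had a difference of 0.70 ± 0.12 (adjusted p = 0.0159, edgeR), which is past the p threshold and under the size of 1 that a call needs. The proneural gene neurog3 was at 0 and 0 CPM in Sox3 morphants and 1.09 and 0.888 CPM in their controls, while Foxi2 morphants had 0.0616, 0.423 and 6.69 CPM and their controls 0.119, 2.27 and 6.69 CPM. It was called lower in Sox3 morphants but its difference was not called (adjusted p = 0.0804, edgeR). With both Sox3 morphants at 0 counts, their mean was at least 8.64-fold below the mean of the controls, computed against 3 counts per library. Of 9 genes that the study names as Sox3 targets, 5 were called with the Foxi2 effect above (sox21, zic4, foxd4l1.2 and hes5.10 among them) and 0 below. Over all genes tested the shares were 0.873% and 0.265%. Those 9 were picked by the study on these samples and those of the early gastrula, so their count is not independent evidence. For hes5.10, a Notch-responsive repressor, Sox3 morphants were at 0.207 and 0.382 CPM and their controls at 1.25 and 1.59 CPM, and for hes4 at 3.81 and 5.19 CPM and 9.51 and 10.1 CPM. The differences were 3.15 ± 0.56 for hes5.10 and 1.11 ± 0.21 for hes4, and both calls were lost without a library of Foxi2 pair 2 or of either Sox3 pair, and that of hes4 also without one of Foxi2 pair 3 (adjusted p up to 0.238 and 0.326).

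The genes that fell most strongly in Sox3 morphants alone were not limited to neural factors. The creatine synthesis enzyme gatm (glycine amidinotransferase, chromosome 3, bases 105054460 to 105070118) was at 0.415 and 0.382 CPM in Sox3 morphants and 8.82 and 9.32 CPM in their controls. In the Foxi2 series it stood at 0.740, 60.1 and 474 CPM in morphants and 0.595, 36.0 and 401 CPM in controls, each pair higher in the morphant, though the Foxi2 effect was not called. With a difference of 4.94 ± 0.27 (adjusted p = 1.63e-05, edgeR), the Sox3 groups did not overlap and lay more than 4 apart on the log2 scale. The amino acid enzymes tat (tyrosine aminotransferase) and hal.1 (histidine ammonia-lyase) had differences of 3.15 ± 0.16 and 1.56 ± 0.22. Both were picked after their values were seen, and the call of hal.1 was lost without a library of Sox3 pair 2 (adjusted p up to 0.069).

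The phosphatase gene cdc25b, whose product activates cyclin-dependent kinases, was at 3.01 and 2.83 CPM in Sox3 morphants and 59.9 and 42.5 CPM in controls, and at 1.54, 121 and 254 CPM in Foxi2 morphants and 2.56, 141 and 487 CPM in Foxi2 controls. Every Foxi2 morphant lay below its own control as well, with ratios of -0.70, -0.22 and -0.94, though the Foxi2 effect was not called, and the difference was 3.53 ± 0.24 (adjusted p = 7.74e-05, edgeR). For lpar6, a receptor of lysophosphatidic acid, the Sox3 morphants had 4.98 and 3.67 CPM against 57.6 and 43.9 CPM, with Foxi2 ratios of -0.79, 0.51 and 0.18 and a difference of 3.83 ± 0.21. Further receptors of this kind were the sphingosine-1-phosphate receptor s1pr5 (2.97 ± 0.52) and the nucleotide receptor p2ry2 (1.39 ± 0.27). Small GTPases were represented by rhob (2.22 ± 0.20) and rhov (1.58 ± 0.12), and hyaluronan synthesis by has2 (1.67 ± 0.16). The receptor, GTPase and enzyme genes of this paragraph other than lpar6 and cdc25b were picked after their values were seen. Among them the call of s1pr5 was lost without a library of either Sox3 pair (adjusted p up to 0.343) and that of p2ry2 without one of any pair but Foxi2 pair 1 (up to 0.203).

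The peptide gene apela (Elabela, also called Toddler), a ligand of the apelin receptor, stood at 1.38 and 0.534 CPM in Sox3 morphants and 8.09 and 8.18 CPM in their controls, and at 0.185, 49.8 and 174 CPM and 0.119, 35.3 and 152 CPM in the Foxi2 series. Both Sox3 morphants lay under both of their controls, with a difference of 3.41 ± 0.29 (adjusted p = 0.000365, edgeR). The receptor gene aplnr also had a called difference of 2.25 ± 0.28, but from a rise in Foxi2 morphants: 0.616, 99.8 and 157 CPM against 0.476, 20.4 and 60.3 CPM in controls. In the Sox3 series aplnr was at 6.05 and 40.01 CPM in morphants and 7.24 and 61.4 CPM in controls, where the replicates lay further apart than the groups. It was picked after its values were seen, and its call was lost without a library of Sox3 pair 2 (adjusted p up to 0.0805). The astacin-like protease genes astl2c and astl2d.1, which are neighbours on chromosome 4 and may share reads, fell in Sox3 morphants by 4.46 and 4.58 on the log2 scale, with Foxi2 effects of -0.40 and -0.34. The call of astl2c was lost when a Sox3 library was left out (adjusted p up to 0.0566). The other 10 pairs of called genes within 50000 bases of each other include angpt4 with angpt4.2 and zic4 with LOC100493456, and in all 11 pairs both members had the Foxi2 effect above the Sox3 effect.

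Most of the genes with the higher Foxi2 effect were on the rise in the controls. Of the 125, 81 rose at least 2-fold in the controls of both series between stages 9 and 10.5 (64.8%, beside 6.55% of all genes tested). Gene by gene, their level in Foxi2 control 1 lay a median of 4.14 below the mean of controls 2 and 3 on the log2 scale. Their median spread over the 3 Foxi2 controls was 4.597, beside 0.76 over all genes. The mean control level was at least 2-fold higher in the Foxi2 series in 53 of the 125 genes and in the Sox3 series in 13. Over all 14316 genes tested these counts were 1921 and 1313, and over the 38 genes with the lower Foxi2 effect 13 and 0. Of 51 genes named by the rules in the methods, leaving out a library of Foxi2 pair 1 ended 0 calls, while 22 were lost without a library of Foxi2 pair 2, 15 without one of Foxi2 pair 3, 28 without one of Sox3 pair 1 and 26 without one of Sox3 pair 2. With Foxi2 pairs 1 and 2 only, 107 genes were called above and 32 below. Foxi2 pair 1 held few reads of these rising genes, so this setting does not match the series in them.

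Of the 125 genes, 9 (7.20%, beside 39.7% of all genes tested) changed by at most 0.5 (log2) from stage 9 to stage 10.5 in the controls of both series, and 4 of these 9, picked after their values were seen, are described. The ubiquitin ligase rnf31 (chromosome 1, bases 139375344 to 139409882), catalytic subunit of the linear ubiquitin chain assembly complex, was at 6.09 and 5.995 CPM in Sox3 morphants and 29.4 and 30.2 CPM in their controls, and at 33.0, 37.4 and 39.3 CPM and 33.3, 39.2 and 38.1 CPM in Foxi2 morphants and controls. Both Sox3 morphants stood below all 8 other libraries, with a difference of 2.29 ± 0.14 (adjusted p = 2.63e-05, edgeR). The GTPase gene drg2 had 43.7 and 35.2 CPM in Sox3 morphants and 89.3 and 89.0 CPM in their controls, with Foxi2 ratios of -0.10, 0.01 and 0.02 and a difference of 1.16 ± 0.13. For sike1, a suppressor of the kinase IKK-epsilon, the Sox3 ratios were -1.38 and -1.06 and the Foxi2 ratios 0.18, -0.33 and 0.10, and its call was lost without a library of Sox3 pair 1 (adjusted p up to 0.109). In rheb, the small GTPase upstream of mTOR, neither effect was called alone, and the difference of 1.22 ± 0.10 joined Sox3 ratios of -0.75 and -0.74 to Foxi2 ratios of 0.48, 0.51 and 0.43.

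Organizer genes, which mark the dorsal side and include secreted BMP antagonists, moved apart in another way. Of 23 tested, 7 had the Foxi2 effect above the Sox3 effect (30.4%, beside 0.873% over all genes tested) and 0 below. The 7 were gsc, chrd.1, nog, lhx1, foxa4, admp and pkdcc.1. Among the 938 genes that rose at least 2-fold from stage 9 to 10.5 in both control series, 81 were called above. The median difference was 1.02, beside 0.01 over all genes tested. The Foxi2 effect was above 0 in 22 of the 23 (median 0.65) and the Sox3 effect under 0 in 18 (median -0.27). Over all 14316 genes tested these counts were 7361 and 7207. Alone, only 3 were called higher in Foxi2 morphants and 1 lower in Sox3 morphants, beside 0.517% and 0.901% over all genes tested. The homeobox gene gsc (goosecoid) was at 1.05, 109 and 174 CPM in Foxi2 morphants and 1.07, 27.8 and 78.1 CPM in their controls, and at 7.85 and 10.8 CPM and 15.4 and 10.6 CPM in Sox3 morphants and controls. Foxi2 pairs 2 and 3 rose, pair 1 did not move, and Sox3 morphants and controls overlapped (difference 1.93 ± 0.36, adjusted p = 0.0232, edgeR). For the BMP antagonist chrd.1 (chordin) the Foxi2 ratios were -2.32, 0.93 and 0.24 and the Sox3 ratios -1.22 and -0.62, with a difference of 1.46 ± 0.30.

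These organizer calls depended on single libraries. None of the 7 remained called when a library of Foxi2 pair 2 or of Sox3 pair 1 was left out, where the highest adjusted p of a gene lay between 0.0804 and 0.448 (edgeR), and DESeq2 called 1 gene of the list where edgeR called 7. In mesoderm, tbxt had Foxi2 levels of 0.185, 43.1 and 245 CPM in morphants and 0.654, 37.1 and 272 CPM in controls, and fell in Sox3 morphants to 1.52 and 2.21 CPM from 12.01 and 7.07 CPM (difference 2.31 ± 0.33, adjusted p = 0.00667, edgeR). The Sox3 groups did not overlap in tbxt, but the call was lost without a library of Sox3 pair 1 (adjusted p up to 0.097). The T-box gene eomes gave 1.52 ± 0.27 and the endoderm gene sox17b.1 1.095 ± 0.18, and the FGF-induced inhibitors spry1 and dusp5 gave 1.07 ± 0.19 and 1.07 ± 0.17. Each of these 4 calls was lost without a library of Foxi2 pair 2 or of either Sox3 pair, and those of eomes and spry1 also without one of Foxi2 pair 3, with adjusted p of up to 0.237 in eomes, 0.166 in sox17b.1, 0.26 in spry1 and 0.105 in dusp5.

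Over whole lists, 2 of 23 mesoderm genes, 1 of 19 endoderm genes, 1 of 28 nodal pathway genes, 2 of 31 FGF pathway genes and 3 of 30 BMP pathway and ventral genes had the Foxi2 effect above (0.873% over all genes tested), and 0 below in any of the 5. Among the 938 genes that rose at least 2-fold from stage 9 to 10.5 in both control series, 81 were called above. The lists share members: the 3 BMP calls are chrd.1, nog and admp of the organizer list, and eomes is the nodal call and 1 of the mesoderm calls. In the same order DESeq2 called 0, 1, 0, 2 and 0 above and voom 2, 1, 2, 2 and 3. The median differences were 0.40, 0.75, 0.22, 0.21 and 0.21. In the Wnt list 2 of 40 were above, the receptor gene fzd8 and the secreted antagonist sfrp2, and 1 was below, the receptor gene fzd3. The level of fzd8 rose in Foxi2 morphants (3.94, 119 and 140 CPM against 2.97, 40.1 and 72.0 CPM), and sfrp2 fell in Sox3 morphants (7.68 and 5.002 CPM against 28.8 and 26.1 CPM). The call of fzd8 was lost without a library of Foxi2 pair 2, Foxi2 pair 3 or Sox3 pair 1 (adjusted p up to 0.421), and that of sfrp2 without a library of Sox3 pair 2 (up to 0.078).

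A further group rose in Foxi2 morphants without a matching rise in Sox3 morphants. The complement receptor gene c3ar1, which binds the fragment C3a, was at 0.185, 83.2 and 170 CPM in Foxi2 morphants and 0, 3.87 and 12.5 CPM in their controls, and at 4.63 and 59.5 CPM and 1.74 and 54.3 CPM in Sox3 morphants and controls. Foxi2 pairs 2 and 3 rose strongly, and the Sox3 series differed far more between replicates 1 and 2 than between morphant and control. Its difference was 3.57 ± 0.33 (adjusted p = 0.00055, edgeR). The same shape held in eda2r, a receptor of the ectodysplasin family known as a p53 target in mammals: 0.246, 12.7 and 22.01 CPM in Foxi2 morphants, 0.119, 1.40 and 2.04 CPM in their controls, 0.865 and 8.97 CPM in Sox3 morphants and 0.849 and 8.103 CPM in their controls. In eda2r the difference was 3.11 ± 0.34 (adjusted p = 0.00142, edgeR), and without a library of Sox3 pair 2 it was no longer called (up to 0.0581). A fit of all 18 libraries ended the calls of both genes. Further members were pdk4, a kinase that turns off pyruvate dehydrogenase (3.30 ± 0.30), and parp3, a poly(ADP-ribose) polymerase of the DNA damage response (2.18 ± 0.35). The gene parp3 was picked after its values were seen, and its call was lost without a library of any pair but Foxi2 pair 1 (adjusted p up to 0.127). Of 21 tested genes of the p53 response, 1 was called above (4.76%, beside 0.873%) and 0 below, with a median difference of 0.36. Of the 21, 2 were called higher in Foxi2 morphants and 0 in Sox3 morphants, beside 0.517% and 0.161% over all genes tested. For aplnr, c3ar1, eda2r, pdk4 and parp3 alike the 2 Sox3 controls lay several-fold apart, with control 2 higher.

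Genes with a higher level in Sox3 morphants and no rise in Foxi2 morphants were few. The Wnt and planar polarity receptor gene fzd3 was at 43.7 and 34.5 CPM in Sox3 morphants and 14.1 and 18.2 CPM in their controls, against 15.8, 13.4 and 10.7 CPM and 19.0, 16.0 and 12.3 CPM in Foxi2 morphants and controls. Both Sox3 morphants were above all 8 other libraries, and the difference was -1.52 ± 0.21 (adjusted p = 0.00522, edgeR). The transferrin receptor gene tfrc, picked after its values were seen, gave -1.11 ± 0.23 with neither effect called alone, and its Foxi2 controls lay far apart, at 300, 69.4 and 12.1 CPM. Its call was lost without a library of Foxi2 pair 2 or of either Sox3 pair (adjusted p up to 0.327).

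Epidermal genes were followed over lists too short for a count of 0 calls to stand apart from the share over all genes tested (1.14%). On the list of non-neural ectoderm transcription factors 0 of 26 had a called difference in either direction. With the foxi2 MO 3 of the 26 fell and 1 rose by the rule for 1 knockdown, and with the sox3 MO 3 fell. Of 34 epidermal and epithelial effector genes 0 had a called difference, while 4 fell with each MO. By that rule 0.475% of all genes tested fell with the foxi2 MO, 0.517% rose with it and 0.901% fell with the sox3 MO. At an unadjusted p under 0.05 the edgeR difference passed in 5 of the 26 and 10 of the 34, beside 1726 of all 14316 genes tested. DESeq2 called 0 and 1 on these lists, and voom 0 and 0. In edgeR fits with other settings the calls were 0 or 1 on the first list, and on the second at most 1 below and 2 above, the most with every gene of at least 1 count tested. The keratin gene krt7, on the second list, was called lower in Sox3 morphants only (-1.22 ± 0.13), and its difference of 0.86 ± 0.18 was past the p threshold (adjusted p = 0.0372, edgeR) and under the size of 1 that a call needs. The gene foxi1, a known target of Foxi2, was at 1.36, 1.27 and 3.24 CPM in Foxi2 morphants and 5.12, 5.67 and 9.46 CPM in their controls, and at 0.311 and 3.21 CPM in Sox3 morphants and 3.60 and 11.1 CPM in Sox3 controls. It was called lower in both knockdowns, with effects of -1.84 ± 0.28 and -2.30 ± 0.33, and the difference of 0.46 ± 0.44 did not pass the test (adjusted p = 0.77, edgeR). For the transcription factor gene tfap2a the effects were -0.79 ± 0.16 (Foxi2) and -1.21 ± 0.17 (Sox3), and for the homeobox gene dlx5 -1.07 ± 0.15 and -0.83 ± 0.18. Their differences of 0.42 ± 0.24 and -0.25 ± 0.23 were not called, although each gene passed the threshold in only 1 knockdown.

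In all, 9 genes were lower and 6 higher in both knockdowns. Among the lower ones were olfm4, a secreted olfactomedin, the ephrin gene efna3, and ptgs2, the cyclooxygenase that starts prostaglandin synthesis. For olfm4 the effects were -2.64 ± 0.16 (Foxi2) and -1.73 ± 0.19 (Sox3), and for efna3 -2.14 ± 0.23 and -1.50 ± 0.27. Their differences had adjusted p of 0.123 and 0.552 (edgeR). At the early gastrula the difference was called for olfm4 (-1.99 ± 0.37, adjusted p = 0.0491, edgeR) and, in the other direction, for ptgs2 (3.44 ± 0.56, adjusted p = 0.0312). For efna3 it was -0.49 ± 0.51, not called. The study names olfm4 among the genes that only Foxi2 regulates. A histone gene, h2ac12, was higher in both (2.11 ± 0.27 and 1.66 ± 0.29). Histone values here are of polyA-selected RNA and need not hold for histone mRNA without a polyA tail. Over 19 replication-dependent histone genes 4 were called higher in Foxi2 morphants and 1 in Sox3 morphants, beside 0.517% and 0.161% over all genes tested. The difference was called in 0 of the 19, beside 1.14% over all genes tested (2 at an unadjusted p under 0.05, and 0 with DESeq2 or voom).

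Of 6 genes that the study names as Foxi2 targets and that were tested, 1 had a called difference (dlc, below), beside 1.14% over all genes tested. Of 6 named as targets of both factors 0 did (1 at an unadjusted p under 0.05 in edgeR, and 0 with DESeq2 or voom). These lists, too, were chosen on the study's own samples. The study called direct targets at the late blastula and at the early gastrula, while the counts here are of the late blastula alone. Over the 6 Foxi2 targets the difference was negative in all 6 (beside 7005 of all 14316 genes tested), with a median of -0.95. Of them 3 were called lower with the foxi2 MO and 0 with the sox3 MO, beside 0.475% and 0.901% over all genes tested. Over the 6 joint targets the difference was positive in 5 (beside 7311 of all 14316), with a median of 0.80. Their median effects were -1.06 (Foxi2) and -1.98 (Sox3), so the 0 calls do not show equal responses. Nor do these medians show unequal ones, since some values rest on few counts. In dlx3 the Sox3 morphants had 0 and 0 counts and their controls 0 and 2, with a fitted Sox3 effect of -2.72 ± 2.14. The keratin gene krt70 was at 0.185, 5.99 and 74.5 CPM in Foxi2 morphants and 0.238, 13.2 and 203 CPM in their controls, and at 6.05 and 1.64 CPM in Sox3 morphants and 5.58 and 2.85 CPM in Sox3 controls. Its difference of -1.12 ± 0.26 did not pass the test (adjusted p = 0.0683, edgeR), with Foxi2 pair 3 holding most of the reads. In amotl1, a scaffold of cell junctions, the Foxi2 ratios were -0.92, -2.52 and -2.13 and the Sox3 ratios -0.49 and -1.74, and the difference of -0.78 ± 0.58 was not called.

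The study also lists zygotic genes near ectodermal regions bound by both Foxi2 and the acetyltransferase Ep300, a mark of active enhancers, from other experiments. Only its Foxi2 peak classes IV to VII were used, which the study describes as present at the early gastrula. Its Ep300 peaks are of that stage too, later than the responses given here. Of 409 such genes tested, 48 had the Foxi2 effect above the Sox3 effect and 1 below, 12% in all beside 1.14% over all genes tested. That share over all genes includes maternal ones. Of the 938 genes that rose at least 2-fold from stage 9 to 10.5 in both control series, 81 were called above and 3 below. Whether binding adds to what rising genes show was not tested. Called lower in Sox3 morphants were 65 of the 409, and lower in Foxi2 morphants 9, beside 0.901% and 0.475% over all genes tested. The median Sox3 effect was -0.33 and the median Foxi2 effect 0.00. The study describes nearly all of these regions as bound by Sox3 too, so the list is not one of Foxi2 sites alone. Lists with 0 called differences were those of cadherins, protocadherins and claudins (32 tested), solute carriers (247), germ plasm transcripts (18), interferon response genes (10), Pou and pluripotency genes (26) and Cdx and Hox genes (11). All of these lists, the solute carriers included, are too short for a count of 0 to stand clearly apart from the 1.14% over all genes tested. In the same order, 5, 20, 0, 0, 3 and 3 genes of these lists were at an unadjusted p under 0.05 in edgeR, beside 1726 of all 14316. DESeq2 and voom called 0 in each list. The Cdx and Hox genes, which pattern the trunk and tail, had a median difference of 0.62, with 9 of the 11 positive beside 7311 of all 14316, and at the early gastrula a median of 1.33 with 3 called above and 0 below.

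The same contrast at the early gastrula uses other libraries, 2 morphants and 2 controls of each factor. There 67 genes had the Foxi2 effect below (0.449% of 14933 tested) and 115 above (0.77%). Of the 37 late blastula genes with the lower Foxi2 effect that were tested at both stages, 34 had a negative difference at the early gastrula and 16 were called below, with a median of -1.37. Of the 125 with the higher effect, 108 had a positive difference and 39 were called above, with a median of 0.94. Over all 14053 genes tested at both stages, 7062 were negative and 6991 positive at the early gastrula, with a median of -0.002. Of all these, 64 were called below and 115 above. No gene was called in opposite directions. The early gastrula counts grew to as many as 455 and 379 when a library of Sox3 pair 2 was left out, and the count below fell to 34 without Foxi2 morphant 1. The libraries differ, but whether the same replicate number marks the same clutch at both stages is not stated in the labels.

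The genes called again came from several groups. Both gps2 (early gastrula difference -1.83 ± 0.29) and cdk5 (-3.04 ± 0.29) were called again, as were ints4, nol6, sympk, myo9a, suclg1, cpsf1 and LOC100489788. So were sox21 (2.696 ± 0.23), zic4 (4.51 ± 0.39), gatm (3.07 ± 0.17), lhx5, hes5.10, apela, rnf31 and drg2. For gsc the early gastrula difference was 0.13 ± 0.25, for tbxt 0.21 ± 0.14, for eda2r 0.35 ± 0.75 and for c3ar1 1.29 ± 0.83, none of them called. The median over the 23 organizer genes was -0.14 at the early gastrula and over the 43 neural plate factors 0.48, with 1 and 6 genes called above and 0 below. The difference of dlc was 0.69 ± 0.29, not called.

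**Figure D5:**
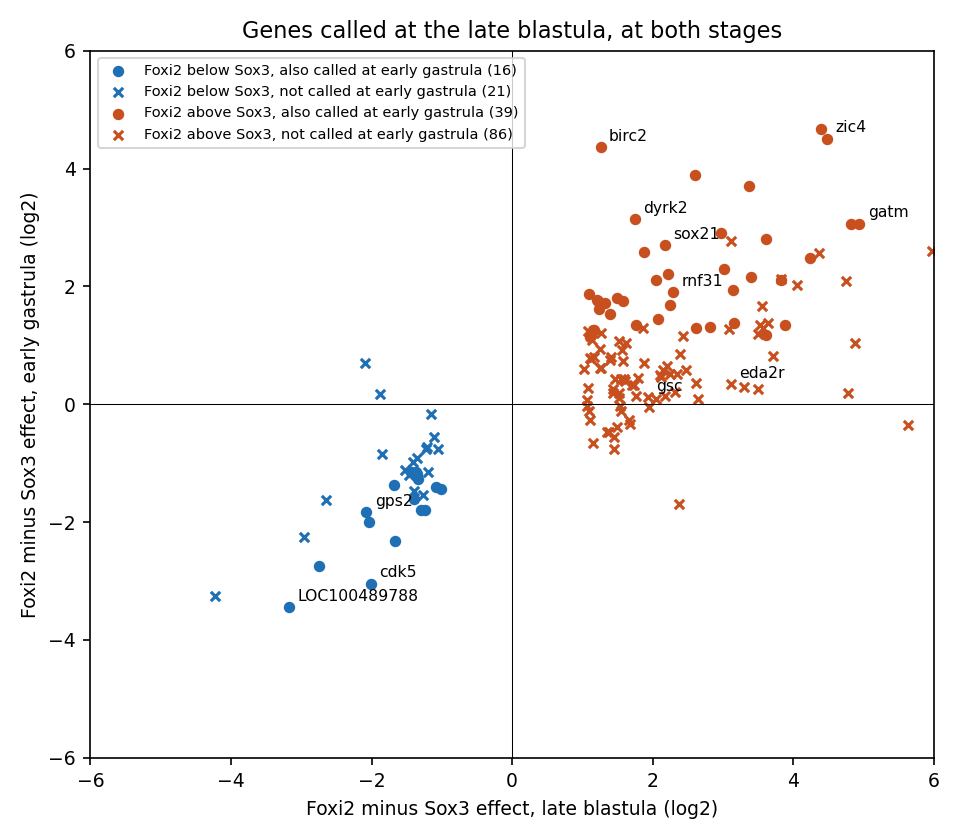
Difference between the knockdown effects (Foxi2 minus Sox3, log2) at the late blastula (x axis) and the early gastrula (y axis) for the 162 called genes tested at both stages; filled points are also called at the early gastrula, and 8 genes lie outside the axes. Most genes of the lower set keep a negative difference (34 of 37, beside 7062 of all 14053 genes tested at both stages). In the upper set gsc and eda2r lie near 0 on the y axis while zic4, gatm and sox21 stay well above it.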

How the data were processed

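RNA was extracted from whole embryos, polyA-selected and sequenced. The authors deposited expected counts, RSEM's estimates of the reads of each gene, in 1 table per factor and stage with 28850 genes and 1 column per library. The submitters' processing notes name RSEM 1.2.12 and Bowtie2 2.2.7, while the study's methods name other versions of RSEM and the aligner STAR with genome version 10.0. Which made these tables is not settled here. Between 4.72% and 9.31% of the values in the late blastula libraries were not whole, more in the Sox3 series. Strand is not stated, so overlapping and antisense genes and near-identical copies are uncertain. Of the gene names, 26531 were found among RefSeq symbols of the same assembly. Samples were grouped by their titles, and no column was left out.

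For the fit, values were rounded, genes were kept by edgeR's filterByExpr, libraries were scaled by the TMM method, and glmQLFit of edgeR 4.0.16 was run in R 4.3.3. The model held 5 pairs (replicate number within series) as a block and 1 morphant effect per factor, which leaves 3 residual degrees of freedom. The contrast was the Foxi2 effect minus the Sox3 effect. Genes were called at a threshold of 0.05 after Benjamini-Hochberg adjustment, with a log2 difference of 1 or more in either direction. CPM used TMM-scaled library sizes, pair ratios a prior count of 2, and a library with at most 3 counts was taken as at the floor (counting error only). The pairing comes from the titles' replicate numbers and from the correlation of deviations, from 0.774 to 0.925 in the 3 Foxi2 pairs. With 2 Sox3 pairs the correlation of 0.814 is the same for both by construction. The biological coefficient of variation was 0.0799 with the block and 0.502 without it.

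Named genes were foxi2 and sox3, the 15 called symbols per direction with the largest difference and pair ratios that did not overlap between the factors, and called members of lists of developmental genes. Some named genes are not reported here, and 19 others were picked after their values were seen. Of those 19, 10 remained called without any single library. The members and lists were chosen with earlier results of these data known. Alternatives were no block, DESeq2 1.42.0, limma 3.58.1 (voom), other scalings, filters, thresholds and sample sets, and each library left out in turn. The steps were tested on simulated data first. Sequences were not used here.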

Additional observations from a re-analysis of the deposited data

Results flagged for a closer look

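The response to the foxi2 MO and the sox3 MO differed, by the test of the difference itself, in 163 genes at the late blastula. Of these genes, 3 were called in both knockdowns in opposite directions. LOC116407684 had a difference of 3.82 (log2), with 0, 16.9 and 34.1 CPM in Foxi2 morphants, 0, 7.54 and 9.70 CPM in their controls, 0.346 and 0.764 CPM in Sox3 morphants and 1.05 and 4.88 CPM in their controls. It lies within LOC100495222, so the reads of both are uncertain. The gene named homeobox100496651-provisional in the tables had a difference of 3.50, with 0.308, 11.5 and 39.6 CPM in Foxi2 morphants and 0.0595, 2.07 and 11.7 CPM in their controls, against 0.726 and 7.10 CPM in Sox3 morphants and 1.90 and 20.3 CPM in theirs. In homeobox100496651-provisional all 3 Foxi2 pairs rose and both Sox3 pairs fell, with the replicates of a group far apart in level. LOC116406494 had a fitted difference of -14.74, which rests on near-zero counts: 0, 0 and 0 counts in Foxi2 morphants, 14, 14 and 0 in their controls, 0 and 89 in Sox3 morphants and 0 and 0 in theirs. Its fitted value is no bound on a fold. No sample was tested for standing apart, since the groups hold 3 and 2 libraries.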

How the results depend on the processing

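Every count rests on the pairing. Without the replicate block, edgeR called 0 genes below and 0 above for the difference at the late blastula (133 at an unadjusted p under 0.05) and 0 and 0 at the early gastrula. Foxi2 morphants then had 0 lower and 0 higher genes, and Sox3 morphants 1 lower and 0 higher. With the block, DESeq2 called 33 genes below and 102 above, and voom 40 and 115. With every gene of at least 1 count tested there were 90 below and 234 above, with at least 10 counts in every control library 36 and 81, at an adjusted p under 0.1 58 and 160, and with no fold threshold 87 and 196. For genes lower in Foxi2 morphants (68), every gene tested gave 109, Foxi2 pairs 1 and 2 only 42 and no fold threshold 240. For genes higher in Foxi2 morphants (74) the counts were 171, 32 and 231, with DESeq2 42, with the control filter 32 and at an adjusted p under 0.1 119. Genes lower in Sox3 morphants (129) were 80 with the control filter and 227 with no fold threshold, and genes higher (23) were 14 with DESeq2, 74 with every gene tested, 10 with the control filter and 67 with no fold threshold. Leaving out 1 library gave 22 to 58 genes below and 58 to 179 above, 41 to 87 lower and 21 to 155 higher in Foxi2 morphants, and 62 to 136 lower and 8 to 33 higher in Sox3 morphants. At the early gastrula it gave 34 to 455 below and 98 to 379 above, the most without a library of Sox3 pair 2. The causes of these changes were not tested, beyond the fewer samples, genes or limits of each setting itself. Where a Sox3 library is left out at the late blastula, the lone Sox3 pair is assumed to vary like the Foxi2 pairs. Of the 51 named genes, 51 kept their sign under all alternatives that gave a value, and 17 also kept the call under all but the one without the block, among them apela, astl2d.1, cdc25b, cdk5, foxd4l1.1, fzd3, gatm, gps2, ints4, lhx5, lpar6, myo9a, pdk4, sox21, sympk and zic4. Some named genes have no value with the control filter, because Foxi2 control 1 had fewer than 10 counts. Depth limits the genes with at most 3 counts in a library.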
